A study of Mus musculus with 6 samples.

Results

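Fos, Fosb, Jun, Junb and Jund encode subunits of the transcription factor AP-1, Egr1 and Nr4a1 encode immediate early transcription factors, and Gadd45a, Gadd45b and Gadd45g encode small stress sensor proteins. These 10 genes were found by their symbols among the 54532 genes of the deposited expression table, and all 10 had exactly 1 row there. They were followed in BM (bone marrow) cells collected from C57BL/6 recipients at day 100 after transplantation, in 3 libraries labelled Phf6 wild-type (WT 1 to WT 3) and 3 labelled Phf6 knockout (KO 1 to KO 3). All recipients had received lineage-negative cells transduced with a retrovirus for JAK3 M511I, an activating form of a Janus kinase, linked to GFP. The WT-labelled cells carried Phf6 fl/y without Cre, and the KO-labelled cells carried Vav1-Cre and Phf6 fl/y, in which Cre is made from the promoter of the blood cell gene Vav1 from embryonic life onward and removes the floxed exons. Both groups thus share the floxed allele and the JAK3 M511I virus, and neither holds cells without mutant JAK3. The comparison asks how the loss of Phf6, a chromatin protein mutated in T-cell acute lymphoblastic leukemia, alters expression in the presence of this kinase. The genotype labels carry a gene symbol whose last digit rises from one sample to the next within each group and were read as Phf6, after the design text. A sort for GFP+ cells before RNA extraction is not described in the labels.

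AP-1 is a pair of basic leucine zipper proteins: a Jun protein pairs with itself, with another Jun protein or with a Fos protein, whereas Fos proteins do not pair with themselves. Fos, Fosb, Jun, Junb, Egr1 and Nr4a1 are switched on within minutes by growth factors, antigen receptors, cytokines and stress, through MAP kinases and factors such as SRF and CREB that already sit on their promoters, and their short-lived RNA decays soon afterwards. Gadd45 proteins are induced by DNA damage, cytokines and other stresses, bind PCNA, p21 and the mitotic kinase Cdk1 with cyclin B1, and act upstream of the p38 and JNK kinases.

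The promoters of 5 of the genes are shown because they hold the short elements through which immediate early and stress genes are read. Each is the stretch of 150 bases before the transcription start given by RefSeq (GRCm38.p6), 5′ to 3′ on the strand of the gene, with TGACG, the core of the cAMP response element that CREB and ATF proteins bind, and TATAAA, the TATA box, in capitals.
Fos (chr12:85473740-85473889, plus strand): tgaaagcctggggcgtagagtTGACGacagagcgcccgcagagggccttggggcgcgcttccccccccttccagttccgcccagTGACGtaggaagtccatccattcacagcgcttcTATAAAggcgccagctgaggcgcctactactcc
Fosb (chr7:19310046-19310195, minus strand): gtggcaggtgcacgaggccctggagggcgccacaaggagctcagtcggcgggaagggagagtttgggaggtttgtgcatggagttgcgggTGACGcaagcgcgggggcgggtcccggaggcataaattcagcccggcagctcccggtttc
Junb (chr8:84978749-84978898, minus strand): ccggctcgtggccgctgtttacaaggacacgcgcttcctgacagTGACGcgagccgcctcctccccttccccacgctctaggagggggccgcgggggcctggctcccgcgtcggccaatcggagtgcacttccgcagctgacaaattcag
Gadd45b (chr10:80929941-80930090, plus strand): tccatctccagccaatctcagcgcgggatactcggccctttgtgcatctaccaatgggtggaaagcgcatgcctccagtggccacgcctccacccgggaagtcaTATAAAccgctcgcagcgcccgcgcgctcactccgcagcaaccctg
Gadd45g (chr13:51846525-51846674, plus strand): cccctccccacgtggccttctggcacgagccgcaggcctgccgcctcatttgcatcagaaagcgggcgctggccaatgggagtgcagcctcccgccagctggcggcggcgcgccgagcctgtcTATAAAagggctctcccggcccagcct

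Of the 10 genes, 9 had a promoter in the RefSeq table, all but Egr1. TGACG, searched on both strands, was in the window of 4 of these 9 genes and in 13.3% of 32851 promoter windows of the same length. In Fos it lay 129 and 66 bases before the start, in Fosb 60 bases, in Junb 106 bases and in Nr4a1 69 and 40 bases before it, in Nr4a1 on the opposite strand. TATAAA was in the windows of Fos, Gadd45b and Gadd45g, at 33, 46 and 27 bases before the start, and in 7.57% of all windows. The other members of each family differed here: neither Jun nor Jund held TGACG, and Gadd45a held no TATAAA. The full cAMP response element TGACGTCA, which contains TGACG, the AP-1 site TGANTCA and the CArG box of SRF had 0 matches in the 9 windows, against 1.36%, 4.24% and 0.916% of all windows. Elements more than 150 bases before the start were not searched, so these 0 matches do not show that the genes lack such sites. CCAAT was found in 5 (Jun, Junb, Gadd45a, Gadd45b and Gadd45g; 24.5% of all windows) and the GC box GGGCGG in 4 (Fos, Fosb, Jun and Nr4a1; 28.6%). The RefSeq start of Nr4a1 lies 12577 bases inside the gene as the deposited table draws it, and that of Jund 1210 bases before it, so these windows belong to other starts than the 5′ ends of the measured genes.

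Expression was deposited as FPKM, fragments scaled by gene length and library size, which allows levels to be compared between genes within a library. In WT 2 this is limited, since levels there also moved with gene length, as described below. The summed FPKM was 329893, 897352 and 305933 in WT 1, WT 2 and WT 3. In the KO-labelled libraries it was 244936 to 256722, so the libraries do not share 1 total. The reads behind the values came to between 13015823 and 18235095 per library, and the smallest value among the 10 genes, Egr1 in KO 2, rested on 29 reads. The 13393 genes with at least 1 FPKM in at least 3 libraries were tested on log2(FPKM + 1) with limma, and fold changes on this scale understate the change of low genes. Phf6 itself did not separate the labels, at 7.47, 3.67 and 8.02 FPKM across WT 1 to WT 3 and 6.73, 5.50 and 5.11 FPKM across KO 1 to KO 3 (log2 fold change -0.073, SE 0.33, limma, adjusted p = 0.893), and values per gene cannot show a loss of single exons, so every direction given here rests on the labels. WT 2 stood apart from all other libraries, with 17.1% of all reads falling on genes under 1000 bases long compared with 3.11% to 5.01% elsewhere. Nothing in the labels says that the libraries of a group came from separate mice, and the p-values then measure only the spread between these libraries, which may be technical.

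All 5 AP-1 genes, Egr1, Nr4a1, Gadd45a and Gadd45b were lower in the KO-labelled libraries, whereas Gadd45g was not. All 10 genes passed the filter on low values, 9 were lower and 0 higher at an adjusted p under 0.05 by limma, and 0 were higher at an unadjusted p under 0.05. Among all genes tested, 13.3% were lower and 13.1% higher. In the same 9 genes every KO-labelled library lay below every WT-labelled library, which held for 22.9% of all genes tested. The median log2 fold change of the 10 genes was -3.49, compared with 0.086 for all genes tested. The ratio of mean FPKM between the WT-labelled and the KO-labelled libraries was lowest for Gadd45g, at 4.01, which was 0.932 without WT 2, and highest for Fosb, at 125, which was 70.8 without WT 3.

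**Figure D1:**
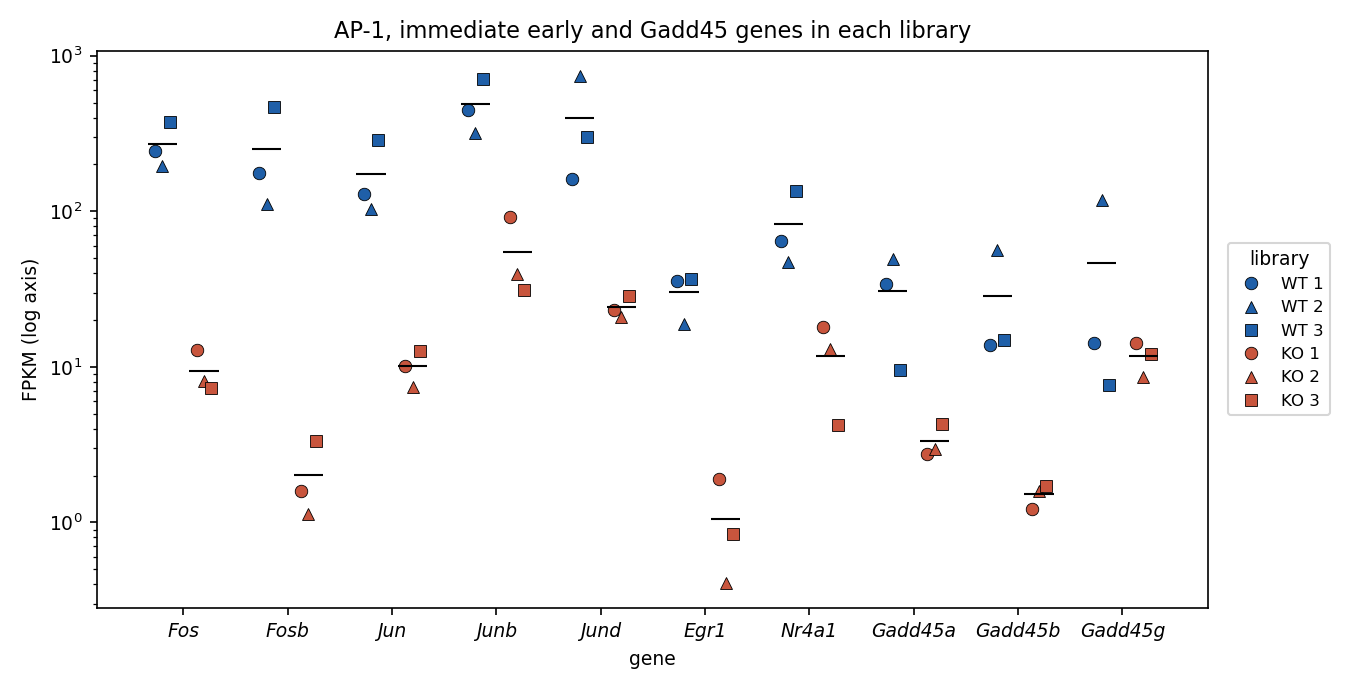
FPKM of the 10 genes in each library on a log axis, with WT-labelled libraries in blue, KO-labelled libraries in red, a symbol for each replicate number and a bar at each group's mean (n = 3). The colours do not overlap for the 9 genes from Fos to Gadd45b, and for Gadd45g the libraries WT 1 and WT 3 sit among the KO-labelled ones while WT 2 is far above them.

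The Fos proteins were examined first. Fos (ENSMUSG00000021250, chromosome 12, 85473890 to 85477273, plus strand), the partner of Jun in the classical AP-1 pair, had 245, 196 and 372 FPKM in WT 1, WT 2 and WT 3 and 12.8, 8.13 and 7.29 FPKM in KO 1, KO 2 and KO 3. All WT-labelled libraries lay far above the KO-labelled ones, the lowest of them 15.3-fold above the highest KO-labelled library. The mean was 271 ± 91.1 FPKM (SD, n = 3) against 9.40 ± 2.96 FPKM (SD, n = 3), and Fos fell by 4.69 on the log2 scale (SE 0.35, 95% interval -5.53 to -3.85, limma, adjusted p = 0.000415). Among the genes tested, the level of Fos stood at a median percentile of 98.8 under the WT label and 57.0 under the KO label.

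Fosb (ENSMUSG00000003545, chromosome 7, 19302696 to 19310051, minus strand), a second Fos protein that is induced with Fos, had 175, 111 and 469 FPKM in WT 1, WT 2 and WT 3 and 1.59, 1.13 and 3.34 FPKM in KO 1, KO 2 and KO 3. The groups were again widely apart, with WT 3 and KO 3 the highest library of each. Fosb fell by 6.19 on the log2 scale (SE 0.57, 95% interval -7.56 to -4.81, limma, adjusted p = 0.000820), the largest change of the 10 genes, from 252 ± 191 to 2.02 ± 1.17 FPKM (SD, n = 3). This is a 125-fold ratio of the means, which was 70.8-fold without WT 3. Its median percentile was 98.2 under the WT label and 17.6 under the KO label.

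The 3 Jun genes followed. Jun (ENSMUSG00000052684, chromosome 4, 95049034 to 95052222, minus strand), the Jun protein with the strongest activating capacity and the substrate of JNK kinases, had 129, 103 and 288 FPKM in WT 1, WT 2 and WT 3 and 10.1, 7.41 and 12.6 FPKM in KO 1, KO 2 and KO 3. The lowest WT-labelled library was 8.17-fold above the highest KO-labelled one. Jun fell by 3.86 on the log2 scale (SE 0.44, limma, adjusted p = 0.00165), from 173 ± 99.8 to 10.1 ± 2.62 FPKM (SD, n = 3).

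Junb (ENSMUSG00000052837, chromosome 8, 84974484 to 84978718, minus strand), a weaker activator that can oppose Jun, had 449, 321 and 704 FPKM in WT 1, WT 2 and WT 3 and 92.0, 39.7 and 31.4 FPKM in KO 1, KO 2 and KO 3. The groups did not overlap, and KO 1 was the highest of the KO-labelled libraries. Junb fell by 3.23 on the log2 scale (SE 0.52, limma, adjusted p = 0.00557), and the ratio of the means was 9.04-fold, or 13.8-fold without KO 1. Rescaling to TPM ended this call (log2 fold change -2.42, adjusted p = 0.0584 by limma), within a range of the adjusted p up to that value over 18 alternatives. The end of Junb overlaps Prdx2 on the opposite strand, whose FPKM was 11.2, 139 and 12.9 across WT 1 to WT 3 and 32.5 to 41.2 in the KO-labelled libraries, and without a statement on strand in the sources reads of the shared stretch cannot be told apart.

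Jund (ENSMUSG00000071076, chromosome 8, 70698949 to 70700616, plus strand), the Jun gene that most cells express without stimulation, had 160, 740 and 299 FPKM in WT 1, WT 2 and WT 3 and 23.1, 21.0 and 28.3 FPKM in KO 1, KO 2 and KO 3. The KO-labelled libraries were close together and below all WT-labelled ones, of which WT 2 was far the highest. Jund fell by 3.72 on the log2 scale (SE 0.56, limma, adjusted p = 0.00457). The ratio of the means was 16.5-fold with WT 2 and 9.50-fold without it, and the log2 fold change without WT 2 was -3.14. Without WT 2 this was the smallest log2 fold change of the 5 AP-1 genes, whereas with all libraries that of Junb was smaller, and these differences between genes were not tested.

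Of the other immediate early factors, Egr1 (ENSMUSG00000038418, chromosome 18, 34859823 to 34864984, plus strand), a zinc finger factor downstream of ERK signalling, had 35.8, 18.7 and 36.5 FPKM in WT 1, WT 2 and WT 3 and 1.90, 0.411 and 0.845 FPKM in KO 1, KO 2 and KO 3. The groups were well apart, although the KO-labelled values rested on only 159, 29 and 61 reads. Egr1 fell by 3.94 on the log2 scale (SE 0.40, limma, adjusted p = 0.00110), and the 28.8-fold ratio of the means was 48.3-fold without KO 1. The median percentile of Egr1 was 89.4 under the WT label and 9.50 under the KO label.

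Nr4a1 (ENSMUSG00000023034, chromosome 15, 101254269 to 101274795, plus strand), an orphan nuclear receptor also known as Nur77 and induced by T cell receptor signals, had 64.8, 47.3 and 135 FPKM in WT 1, WT 2 and WT 3 and 18.04, 13.0 and 4.23 FPKM in KO 1, KO 2 and KO 3. The lowest WT-labelled library was 2.62-fold above the highest KO-labelled one, and KO 3 was the lowest of all. Nr4a1 fell by 2.76 on the log2 scale (SE 0.60, 95% interval -4.19 to -1.33, limma, adjusted p = 0.0170). The call was lost after rescaling to TPM (log2 fold change -2.03, limma, adjusted p = 0.133) and without KO 2 (log2 fold change -2.92, limma, adjusted p = 0.0550), and over the 18 alternatives the adjusted p ran from 0.00102 to 0.133.

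The 3 Gadd45 genes were examined next, and whether their changes differ from each other was not tested. Gadd45a (ENSMUSG00000036390, chromosome 6, 67035096 to 67037457, minus strand), a target of p53, had 33.9, 49.2 and 9.51 FPKM in WT 1, WT 2 and WT 3 and 2.74, 2.95 and 4.26 FPKM in KO 1, KO 2 and KO 3. All KO-labelled libraries lay below the WT-labelled ones, but WT 3 was only 2.23-fold above KO 3. Gadd45a fell by 2.63 on the log2 scale (SE 0.58, 95% interval -4.03 to -1.23, limma, adjusted p = 0.0186). Its call was lost when WT 1 (limma, adjusted p = 0.0635), KO 1 (0.0778), KO 2 (0.0760) or KO 3 (0.0593) was left out, with log2 fold changes between -2.78 and -2.43, and over the 18 alternatives the adjusted p ran from 0.000219 to 0.0778.

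Gadd45b (ENSMUSG00000015312, chromosome 10, 80930073 to 80932204, plus strand), which is induced by cytokines, TGF-beta and NF-kappa B, had 13.9, 56.6 and 15.0 FPKM in WT 1, WT 2 and WT 3 and 1.22, 1.60 and 1.72 FPKM in KO 1, KO 2 and KO 3. WT 1 and WT 3 were nearly equal, WT 2 was far above them, and the KO-labelled libraries were all much lower. Gadd45b fell by 3.26 on the log2 scale (SE 0.54, limma, adjusted p = 0.00651). The 18.9-fold ratio of the means was 9.55-fold without WT 2, where the log2 fold change was -2.62.

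Gadd45g (ENSMUSG00000021453, chromosome 13, 51846678 to 51848468, plus strand), a cytokine-induced member, had 14.1, 119 and 7.65 FPKM in WT 1, WT 2 and WT 3 and 14.3, 8.61 and 12.1 FPKM in KO 1, KO 2 and KO 3. WT 1 and WT 3 enclosed nearly the whole range of the KO-labelled libraries, and WT 2 alone was high. The log2 fold change was -1.01 (SE 0.94, 95% interval -3.26 to 1.25, limma, adjusted p = 0.484), and without WT 2 it was 0.12 (limma, adjusted p = 0.755, within a range of 0.199 to 0.823 over the alternatives). The interval with all libraries is wide enough to hold a change as large as that of Gadd45a, so that a fall of Gadd45g was not shown and not bounded closely.

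**Figure D2:**
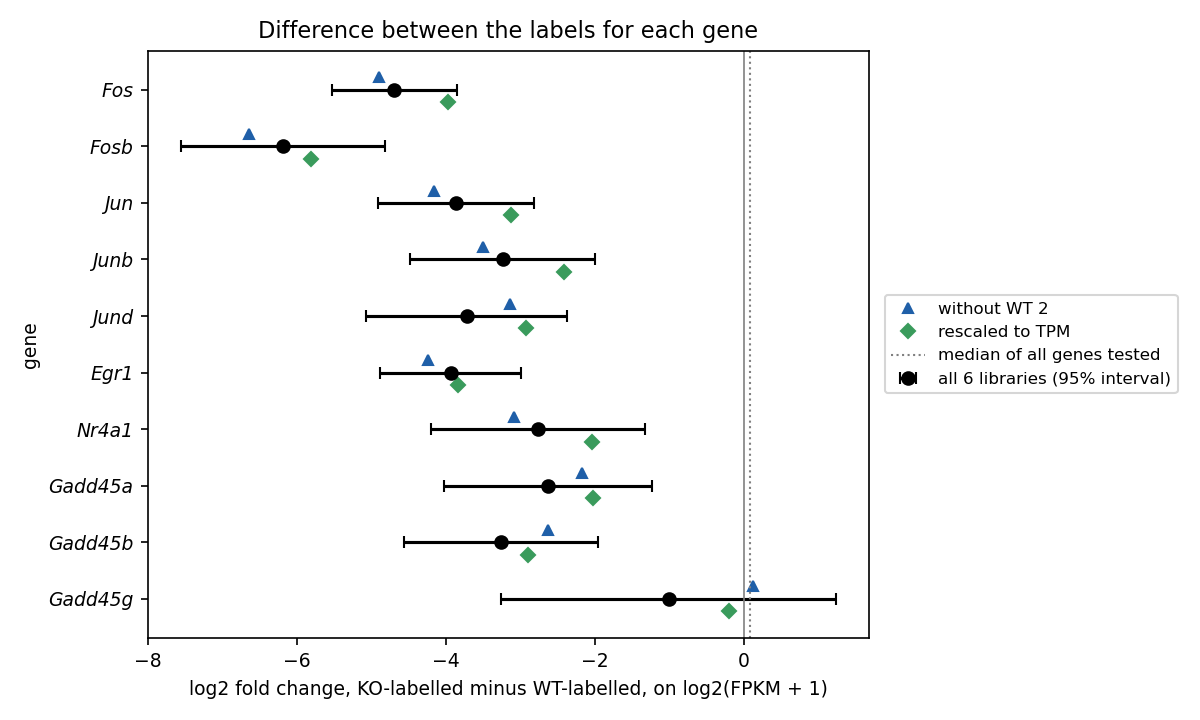
Log2 fold change of each gene, KO-labelled minus WT-labelled libraries, on log2(FPKM + 1), with 95% intervals from limma (black circles), the values without WT 2 (blue triangles) and after rescaling to TPM (green diamonds); the dotted line is the median of all genes tested, 0.086. The intervals of 9 genes end below 0, that of Gadd45g runs from -3.26 to 1.25, and its value without WT 2 is 0.12.

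The order of the levels was compared between the labels. In the WT-labelled libraries Junb was the highest (491 ± 195 FPKM), followed by Jund (399 ± 303 FPKM), Fos (271 ± 91.1 FPKM) and Fosb (252 ± 191 FPKM; all SD, n = 3). Jun, Nr4a1, Gadd45g, Gadd45a, Egr1 and Gadd45b came after them, from 173 down to 28.5 FPKM, and no gap between neighbours in this order exceeded the larger of their SDs. The place of Jund rested on WT 2, since in WT 1 and WT 3 it lay below Junb, Fos and Fosb. In the KO-labelled libraries Junb (54.4 ± 32.9 FPKM) and Jund (24.1 ± 3.77 FPKM) came first, and Nr4a1 and Gadd45g, each with a mean of 11.7 FPKM, came next, above Jun and Fos. Fosb, close to Fos in the WT-labelled libraries, came after Gadd45a in the KO-labelled ones. Here the gaps from Jund to Nr4a1, from Fos to Gadd45a and from Gadd45a to Fosb were larger than the SD of either neighbour. As a view that depends less on the scale, the percentile of each gene among the genes tested was compared by an exact two-sided permutation test, which cannot go below p = 0.1 with 3 against 3 libraries. This exact test gave p = 0.1 for 9 genes and p = 0.8 for Gadd45g (0.111 and 0.8 after Benjamini-Hochberg adjustment over the 10 genes). For the 9 genes this value states only that the percentiles of the groups did not overlap, so it is no separate line of evidence.

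The make-up of each family was then examined, since AP-1 acts as pairs and its composition sets what it binds. The summed FPKM of the 5 AP-1 genes came to 1587 ± 497 (SD, n = 3) under the WT label against 100.0 ± 34.4 (SD, n = 3) under the KO label, a 15.9-fold ratio. Fos and Fosb together made up 36.2%, 20.9% and 39.5% of this sum in WT 1, WT 2 and WT 3 and 10.3%, 12.0% and 12.8% in KO 1, KO 2 and KO 3. Jun family RNA was the larger part of the sum in every library. Fosb alone made up 15.1%, 7.55% and 22.02% across WT 1 to WT 3 and 1.14%, 1.46% and 4.03% across KO 1 to KO 3. Neither share overlapped between the labels, and the exact two-sided permutation test gave p = 0.1, the smallest value possible (0.18 after Benjamini-Hochberg adjustment over 9 shares).

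Within the Jun genes the shares overlapped. Junb held 60.8%, 27.6% and 54.6% of Jun, Junb and Jund in WT 1, WT 2 and WT 3 and 73.5%, 58.3% and 43.4% in KO 1, KO 2 and KO 3 (exact permutation test, p = 0.5). Jund held 18.4% to 39.2% in the KO-labelled libraries and 21.7% to 63.6% in the WT-labelled ones, with WT 2 the highest. Within the Gadd45 genes, Gadd45g made up 22.8%, 52.9% and 23.8% in WT 1, WT 2 and WT 3 and 78.4%, 65.4% and 67.0% in KO 1, KO 2 and KO 3. It was the leading Gadd45 transcript in all 3 KO-labelled libraries and also in WT 2. Gadd45b made up 22.5%, 25.2% and 46.6% across WT 1 to WT 3 and 6.65%, 12.1% and 9.50% across KO 1 to KO 3. Neither of these Gadd45 shares overlapped (exact permutation test, p = 0.1 each, 0.18 after adjustment), while that of Gadd45a did (p = 0.3). The summed FPKM of the Gadd45 genes was 6.43-fold higher in the WT-labelled libraries and 2.85-fold higher without WT 2.

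**Figure D3:**
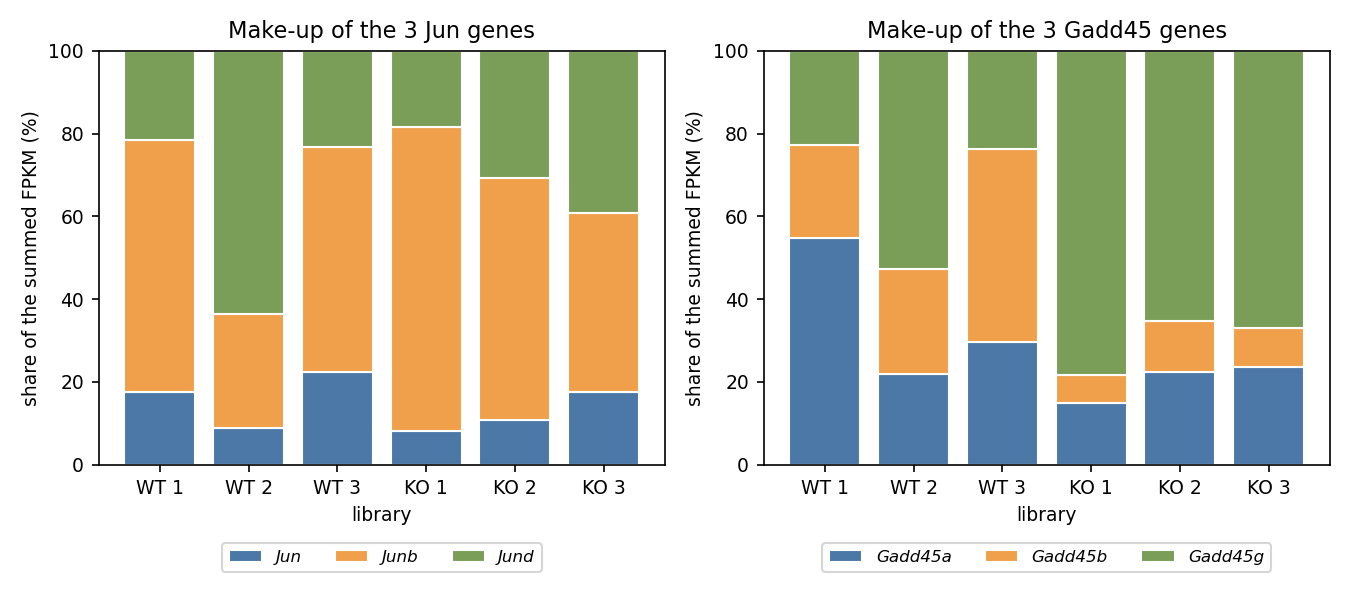
Share of each gene in the summed FPKM of the 3 Jun genes (left) and of the 3 Gadd45 genes (right), in percent, with 1 bar for each library. Jun shares overlap between the labels and WT 2 has the most Jund (63.6%), while Gadd45g takes 65.4% to 78.4% under the KO label and 22.8% to 52.9% under the WT label.

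Length and the library WT 2 moved together with a division within the 10 genes. Fos, Fosb, Jun, Junb, Egr1 and Nr4a1, all longer than 2000 bases, were lower in WT 2 than in the mean of WT 1 and WT 3, with differences from -1.36 to -0.62 on log2(FPKM + 1). Jund, Gadd45a, Gadd45b and Gadd45g, all between 1000 and 2000 bases long, were higher in WT 2, by 1.75, 1.39, 1.90 and 3.39. Over all genes tested the median of this difference was -0.29 under 1000 bases, 0.79 between 1000 and 2000 bases, 0.28 between 2000 and 4000 bases, -0.30 between 4000 and 8000 bases and -0.90 from 8000 bases upward. The part of length in the levels of the 10 genes in WT 2 was not tested. Without WT 2 the same 9 genes were lower, as were 25.3% of all genes tested.

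The genes around AP-1 and Gadd45 were followed in 6 lists, to be read beside the 13.3% lower and 13.1% higher among all genes tested. Of 20 other immediate early genes, 19 were tested, of which 17 were lower and 0 higher, with a median log2 fold change of -2.31. Dusp1, a phosphatase that shuts off MAP kinases, fell by 5.91, from 220.4, 143 and 201.0 FPKM across WT 1 to WT 3 down to 1.93, 2.002 and 2.40 FPKM across KO 1 to KO 3. Cd69, an early activation antigen of lymphocytes, fell by 4.68, and Klf6, a zinc finger factor, fell by 4.30 (limma, adjusted p = 0.000233, 0.000271 and 0.000623). After rescaling to TPM 11 of the list were lower and 1 higher.

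Of 13 further AP-1 partners of the Fos, ATF, Maf and BATF kind, 11 were tested, of which 6 were lower and 0 higher, with a median of -1.11. Atf3, a stress-induced partner of Jun, fell by 4.14, from 22.7, 33.0 and 8.09 FPKM across WT 1 to WT 3 down to 0.125, 0.0295 and 0.144 FPKM across KO 1 to KO 3. Maff, a small Maf protein, fell by 3.23, and Fosl2, a Fos protein, fell by 4.12 (limma, adjusted p = 0.00194, 0.00573 and 0.00632). The count was 2 after rescaling to TPM, which ended the call of Maff (limma, adjusted p = 0.0718), and 3 without any 1 of the KO-labelled libraries. Of all genes tested 8.07% were lower after rescaling to TPM and 7.44% to 8.08% without 1 of the KO-labelled libraries.

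Factors and kinases linked to the control of these genes were examined next. Of 13 SRF, CREB and MEF2 factors tested, 5 were lower and 0 higher (median -0.82). Crem, a CREB relative, fell by 1.69, Nab2, a corepressor of Egr proteins, fell by 1.17, and Mrtfa (listed as Mkl1), a coactivator of SRF, fell by 1.19 (limma, adjusted p = 0.00317, 0.00896 and 0.00947). Nab2 is on this list without being an SRF, CREB or MEF2 factor. It had only 1.12, 1.85 and 1.93 FPKM across WT 1 to WT 3. Across KO 1 to KO 3 it had 0.365, 0.108 and 0.0211 FPKM. Of 15 MAP kinase genes, 2 were lower and 1 higher (median -0.17), a share near that of all genes tested (13.3% lower and 13.1% higher). Mapk3, which encodes ERK1, fell by 1.81, Mapk14, which encodes p38 alpha, fell by 0.92, and Mapk9, which encodes JNK2, rose by 1.25 (limma, adjusted p = 0.0262, 0.0333 and 0.0144). The SRF, CREB and MEF2 count was 8 without WT 2, 3 without WT 1, WT 3, KO 1 or KO 3, 2 without KO 2 and 0 after rescaling to TPM. For the MAP kinases, 5 were lower and 3 higher without WT 2, where 25.3% of all genes tested were lower and 26.8% higher, 0 were lower without WT 1, 0 were called without any 1 of the KO-labelled libraries, and after rescaling to TPM 0 were lower and 1 higher.

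Among 8 partners of Gadd45 proteins, 0 were lower and 2 higher (median 0.45), against 13.3% lower and 13.1% higher among all genes tested. A difference of so short a list from these shares was not tested. Tdg, a DNA glycosylase of active demethylation, rose by 1.76, and Ccnb1, cyclin B1, rose by 1.85 (limma, adjusted p = 0.0187 and 0.0282), while Cdk1, at 1.46 on the log2 scale, did not pass (limma, adjusted p = 0.0825). The count higher was 1 without WT 1 and 0 without any 1 of the KO-labelled libraries, and 1 gene was lower without WT 2. Of 8 heat shock genes tested, which respond to stress and handling of cells, 3 were lower and 0 higher (median -0.90), against the same shares. The co-chaperone Hsph1 fell by 2.85, while the inducible Hsp70 gene Hspa1b fell by 2.36 and Dnaja1 fell by 0.89 (limma, adjusted p = 0.00157, 0.0219 and 0.0442). The count was 1 without WT 1, where 10.3% of all genes tested were lower. It was also 1 without any 1 of the KO-labelled libraries, where 7.44% to 8.08% were lower. Hspa1b shares most of its sequence with Hspa1a, so its value is uncertain where reads could be split, and the part of stress before extraction in the levels of the AP-1 genes was not tested.

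**Figure D4:**
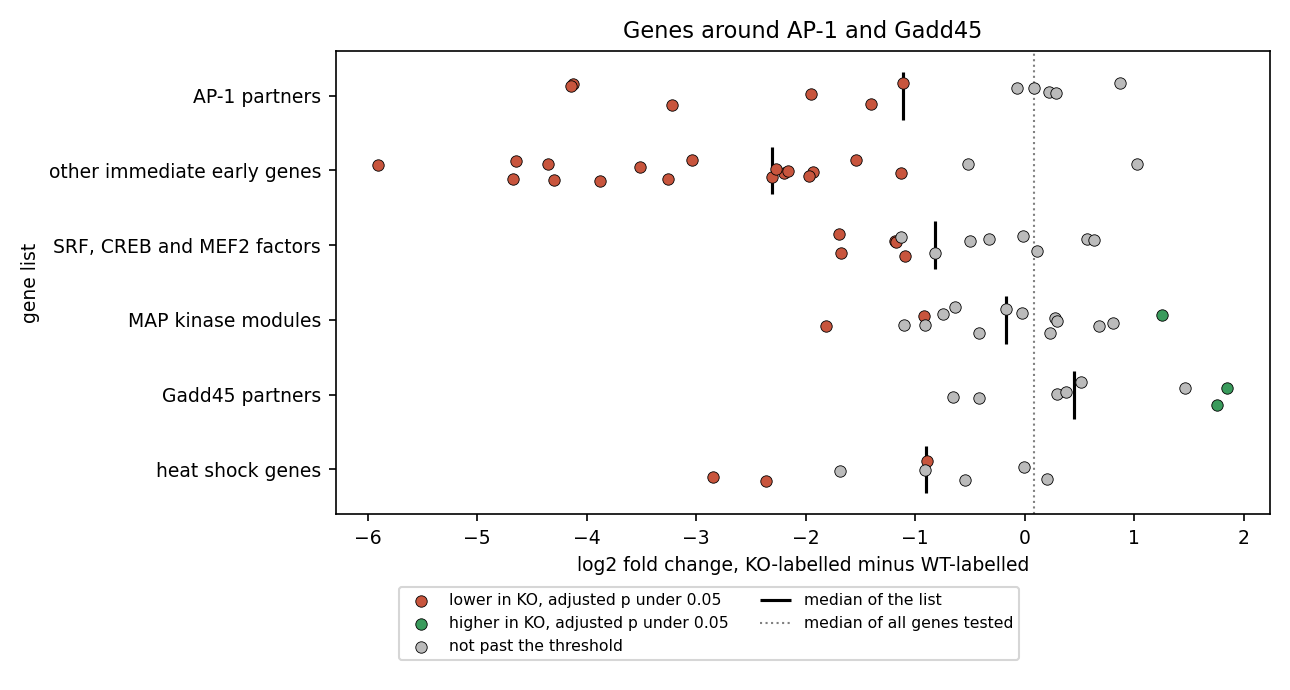
Log2 fold change of each tested gene in the 6 lists, KO-labelled minus WT-labelled libraries, on log2(FPKM + 1), with genes lower in red, higher in green and others in grey, a black bar at each list's median and a dotted line at the median of all genes tested (0.086). The other immediate early genes have the lowest median (-2.31) and the Gadd45 partners the highest (0.45).

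Markers of other cell types also differed between the labels. Their counts stand beside 13.3% lower and 13.1% higher among all genes tested. All 12 neutrophil markers were lower in the KO-labelled libraries, with a summed FPKM of 6876 to 95098 under the WT label and 92.0 to 291 under the KO label. Of 8 monocyte and macrophage markers tested 6 were lower (609 to 5112 against 16.9 to 30.1), of 4 B cell markers 1 (14.5 to 1003 against 0.918 to 1.13) and of 4 erythroid markers 0 (118 to 58623 against 9.28 to 105). The upper ends of the B cell and erythroid ranges under the WT label, 1003 and 58623, came from WT 2 alone. In WT 1 and WT 3 both sums were far lower, so these ranges do not describe the WT-labelled group as a whole. Of 5 NK cell markers 4 were lower and 1 higher (173 to 1159 against 574 to 623), and Klra8 was listed at 0 in all KO-labelled libraries, the only marker of these lists at 0 in a whole group. The higher marker, Gzma, had 12.9 to 50.8 FPKM under the WT label and 566 to 615 FPKM under the KO label, nearly the whole sum there. The lower markers were Klrb1c, Eomes, Klra8 and Tyrobp. Tyrobp, at 254, 1072 and 57.8 FPKM across WT 1 to WT 3, made up most of the sum in WT 1 and WT 2. Leaving out 1 library moved several of these counts. Without WT 2, 4 B cell and 2 erythroid markers were lower, 2 erythroid markers were lower without WT 1, 0 B cell markers were lower without any 1 of the KO-labelled libraries, and 2 NK cell markers were lower without KO 1 or KO 3. The summed FPKM of the T cell markers overlapped between the groups, 793 to 1401 against 782 to 1014, but single markers, named after their values were seen, lay apart. Of the 8, Trac, the T cell receptor alpha constant gene, fell from 196, 292 and 226 FPKM across WT 1 to WT 3 to 41.8, 15.8 and 7.04 FPKM across KO 1 to KO 3 (limma, adjusted p = 0.00596), and Cd5, a T cell surface glycoprotein, was also lower (limma, adjusted p = 0.0200). Lck, a kinase of the T cell receptor, had 175 to 193 FPKM in the WT-labelled and 302 to 312 FPKM in the KO-labelled group without passing the test (limma, adjusted p = 0.127). Of the T cell markers 1 was lower without WT 3, KO 2 or KO 3, and 2 were lower and 2 higher without WT 2. Among all genes tested 25.3% were lower and 26.8% higher without WT 2, near the shares of these T cell markers. Without WT 1 10.3% of all genes tested were lower, and without WT 3 12.4%. Without 1 of the KO-labelled libraries it was 7.44% to 8.08%. In RNA of a bulk sample, fewer cells of a type and less RNA per cell cannot be told apart, and the part of these cell types in the levels of the 10 genes was not tested. The sums of neutrophil and monocyte markers were highest in WT 2 and, among the WT-labelled libraries, lowest in WT 3. Fos, Fosb, Jun, Junb, Egr1 and Nr4a1 were each highest in WT 3, Egr1 only narrowly (36.5 against 35.8 FPKM in WT 1). Jund, Gadd45a, Gadd45b and Gadd45g were each highest in WT 2. Among the WT-labelled libraries Gadd45a and Gadd45g were lowest in WT 3, and Jund and Gadd45b in WT 1. A relation between these orders was not tested.

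Finally, the genes whose pattern over the 6 libraries lay closest to Fos, Junb and Gadd45b were sought, by the root mean square distance between log2(FPKM + 1) values after each gene's mean was taken off. Closest to Fos were Samd3 (distance 0.245), Gimap4, a lymphocyte GTPase (0.274), and Cd69 (0.277), compared with 0.455 for Egr1, the nearest of the other 9 genes, and a median of 2.46 over all genes tested. Closest to Junb were Btla, an inhibitory receptor of lymphocytes (0.238), the immunoglobulin kappa joining segment Igkj2 (0.247) and Per1, a clock gene (0.297), with Nr4a1 as the nearest of the 10 genes (0.420). Closest to Gadd45b were the immunoglobulin kappa variable segment Igkv4-61 (0.143), Pkp3, a desmosome protein (0.151), and Abhd14a (0.175), with Jund as the nearest of the 10 genes (0.350). Igkv4-61, Pkp3 and Abhd14a were highest in WT 2, like Gadd45b, with 28.5, 31.8 and 18.7 FPKM there. Several of these genes were near 0 under the KO label. Across KO 1 to KO 3 Igkj2 had 2.50, 0 and 0 FPKM and Igkv4-61 had 0, 0.166 and 0 FPKM, while Abhd14a had 0.0588 to 0.0763 FPKM. At such values the added 1 FPKM sets much of the pattern, so their distances are uncertain.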

How the data were processed

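RNA of BM cells was sequenced by the authors in 6 libraries (Trizol extraction, NEBNext libraries, Illumina NovaSeq, paired ends). The submitters' processing notes name HISAT2 2.0.5, featureCounts 1.5.0-p3 and the builds GRCm38 and mm10, while annotation release and strand setting are not given in the sources used here. The deposited unit is FPKM for each gene and library, made by the authors from reads per gene, gene length and a library size. Multiplied by gene length, the values above 0 were whole multiples of 1 read, within 0.1 read, for 100% of genes in each library, which gave the reads per gene. The library size implied by the values was not their total: the ratio of total to size was 0.827 to 1.55, highest in WT 2. A floor of 3 reads corresponds to between 0.161 and 0.255 RPM, which covers counting error only. No pair of replicates agreed within sampling noise.

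The study tested counts. Because the deposited values are FPKM, log2(FPKM + 1) was tested here with limma 3.58.1 (lmFit, then eBayes with trend, two-sided) in R 4.3.3, over the 13393 genes that reached 1 FPKM in 3 or more libraries, with Benjamini-Hochberg adjustment and a threshold of 0.05. Shares and percentiles were compared by exact permutation tests. The scripts were tested on simulated data. Gene coordinates of all 10 genes were those of the GRCm38 annotation. Promoter sequences came from RefSeq.

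The 10 genes, the 6 gene lists and the 6 marker lists, written from general knowledge, were chosen with earlier results of these data known. Of each gene list, up to 3 genes with the smallest p are named, and for Fos, Junb and Gadd45b the 3 nearest genes. The alternatives were pseudocounts of 0.1 and 0.5, no filter, a minimum mean FPKM of 5, scaling by median of ratios, quantiles or TPM, removal of the length trend, eBayes without trend, array weights, a block for the replicate number, omission of each library, voom on the recovered reads and a threshold of 0.01. Other software: Matplotlib 3.10.9, SciPy 1.17.1, NumPy 2.4.6, pandas 2.3.3, Python 3.11.15 and the R package for data tables (data.table, version 1.17.8).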

Additional observations from a re-analysis of the deposited data

How the results depend on the processing

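Over 18 alternatives, 172 of 180 log2 fold changes of the 10 genes kept their direction and their side of the threshold, 7 lost the call (1 of Junb, 2 of Nr4a1 and 4 of Gadd45a, given above) and 1 reversed. With a threshold of 0.01, 7 genes were lower instead of 9. The count of members lower was 7 after rescaling to TPM and between 7 and 9 when 1 library was left out, and 0 were higher under every alternative. Of all genes tested 8.07% were lower after rescaling to TPM and 7.44% to 25.3% when 1 library was left out. The log2 fold change of Gadd45g reversed without WT 2, and lay between -1.77 and 0.12 when 1 library was left out. That of Phf6 reversed after rescaling to TPM (0.69) and without WT 1 or WT 3, and lay between -0.37 and 0.10 when 1 library was left out. The cause was not tested.

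The count over all genes was 3539 of 13393 tested, and 1837 of only 8296 tested at a mean FPKM of at least 5. It was 8461 with array weights, which gave WT 2 a weight of 0.051, and 6967 without WT 2. Without a KO-labelled library it was 1934, 2021 or 2071. Rescaling to TPM moved the median over all genes from 0.086 to 0.86 on the log2 scale, and 67.8% of its calls were higher compared with 49.6%. The replicate numbers of the labels did not pair the libraries: deviations from the group means of libraries with the same number correlated at 0.095, 0.10 and -0.15 over genes, and not every library correlated best with its own number. With the replicate number as a block, 9 of the 10 genes were lower and 0 higher, and 2676 of all genes passed. Voom on the recovered reads gave 9 lower and 0 higher, beside 13.6% lower and 11.5% higher among all genes tested. Of the other genes named, Dnaja1 lost its call in 10 alternatives, Mapk14 in 7, Mapk3 in 6 and Ccnb1 and Hspa1b in 5 each. Depth limits mainly the low values of Egr1, Gadd45b, Gadd45a and Fosb in the KO-labelled libraries. Gadd45a rested on 90, 82 and 121 reads across KO 1 to KO 3, fewer than Fosb in each.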

Other observations

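Relatives of the genes described above, chosen after their values were seen, behaved as follows. Nr4a2 and Nr4a3, the other nuclear receptors of the Nr4a family, had lower levels than Nr4a1 in both groups. Nr4a2 had 32.7, 9.98 and 43.1 FPKM in WT 1, WT 2 and WT 3 and 0.238, 0.110 and 0.383 FPKM in KO 1, KO 2 and KO 3, a log2 fold change of -4.36 (SE 0.53, limma, adjusted p = 0.00209). Nr4a3 had 11.9, 6.71 and 7.88 FPKM against 0.368, 0.0212 and 0.135 FPKM, a log2 fold change of -3.04 (SE 0.28, limma, adjusted p = 0.000767). The groups did not overlap for either gene, and both remained past the threshold after rescaling to TPM (adjusted p = 0.0120 and 0.00873), unlike Nr4a1.

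Egr3, a relative of Egr1, had 1.75, 2.93 and 4.73 FPKM in WT 1, WT 2 and WT 3 and 0.0975, 0.0144 and 0 FPKM in KO 1, KO 2 and KO 3, or -1.93 as the log2 fold change (limma, adjusted p = 0.00447). Ier2, a short immediate early gene, was highest in WT 2 as Jund and the Gadd45 genes were, with 162, 638 and 182 FPKM against 21.3, 16.6 and 14.3 FPKM, or -3.88 as the log2 fold change (limma, adjusted p = 0.00383).

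Myc, a growth factor response gene on the list of other immediate early genes, went against the rest of its list. It had 30.4, 45.1 and 53.3 FPKM in WT 1, WT 2 and WT 3 and 64.8, 79.1 and 126 FPKM in KO 1, KO 2 and KO 3, so that all KO-labelled libraries were above all WT-labelled ones. The log2 fold change was 1.03 (SE 0.36, limma, adjusted p = 0.0838), which did not pass the threshold. It passed in 4 of 18 alternatives, among them rescaling to TPM (adjusted p = 0.0375) and the fit without WT 2 (adjusted p = 0.0434), within a range of 0.00207 to 0.263.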
